A study of Homo sapiens with 10 samples.

Results

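The sites described here are the MYC binding peaks on human chromosomes 20 and 22, chosen by the chromosome named in each of 3 deposited peak lists. They number 369 of 4749 peaks of wild-type MYC (WT), 109 of 845 peaks of a mutant named 3A and 8 of 64 peaks of a mutant named 7A, or 486 of 5658 in all. Chromosome 20 held 186 WT, 56 3A and 3 7A peaks, and chromosome 22 held 183, 53 and 5. The peak calls themselves chose the members, and the pair of chromosomes was taken up with earlier results of these lists in view, so the values below are a description and no test was run on them.

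All groups came from U2OS, a human osteosarcoma line, with its own MYC gene knocked out and a FLAG-tagged MYC placed under doxycycline control. Immunoprecipitates (IPs) with a FLAG antibody were made from cells given 1 µg/mL doxycycline for 24 h to induce WT, 3A or 7A MYC, and from WT cells without doxycycline. Each of these 4 groups has 2 libraries, and the WT inputs with and without doxycycline have 1 each, 10 libraries in all. Mouse NIH3T3 cells were mixed in at 10% as a reference genome. The labels do not say which residues 3A and 7A change. The limits of the model are that binding was measured for an induced, tagged protein in a single tumour line, and that each induced protein has 1 peak list, so there is no spread between replicates. No peak list of the uninduced or input libraries was used here. Whether the authors' peak calls took an input as control is not given, so input reads may enter the folds and backgrounds. Intervals are Wilson 95% intervals and cover counting error only.

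MYC binds DNA as a dimer with MAX, through basic helix-loop-helix leucine zipper domains that recognise the E-box CACGTG and related words such as CACGCG. It is known for occupying promoters that are already open and active, among them those of genes for ribosome production, translation and nucleotide synthesis. Chromosome 22 is acrocentric, with its genes on the long arm, and both chromosomes are small and rich in genes.

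To show what the bound promoters look like, 150 bases before the start are printed for 7 genes, 5′ to 3′ on the gene's strand, from the RefSeq promoter table of GRCh38.p14. CACGTG, and CACGCG or its reverse complement CGCGTG, are in capitals. The first 4 had both a WT and a 3A summit within 1 kb, and SNRPB was the only gene of these chromosomes with a 7A summit as well. The last 3 had a WT summit and no 3A summit. FOXRED2, ATF4 and CBX6 were chosen for display after their values were seen.
SNRPB (chr20:2470790-2470939, minus strand): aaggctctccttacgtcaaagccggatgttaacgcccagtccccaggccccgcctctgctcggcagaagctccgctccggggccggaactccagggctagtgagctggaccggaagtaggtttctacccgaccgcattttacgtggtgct
XRN2 (chr20:21303181-21303330, plus strand): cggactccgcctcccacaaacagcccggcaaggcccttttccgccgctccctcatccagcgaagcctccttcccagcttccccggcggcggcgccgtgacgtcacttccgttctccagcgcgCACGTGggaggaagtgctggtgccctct
FOXRED2 (chr22:36507041-36507190, minus strand): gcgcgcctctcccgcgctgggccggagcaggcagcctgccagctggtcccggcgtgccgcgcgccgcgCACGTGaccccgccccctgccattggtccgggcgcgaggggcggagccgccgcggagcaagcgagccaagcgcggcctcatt
ATF4 (chr22:39520409-39520558, plus strand): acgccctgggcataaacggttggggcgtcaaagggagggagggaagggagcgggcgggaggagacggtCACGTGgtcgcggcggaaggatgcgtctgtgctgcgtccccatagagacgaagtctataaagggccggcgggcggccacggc
CBX6 (chr22:38872217-38872366, minus strand): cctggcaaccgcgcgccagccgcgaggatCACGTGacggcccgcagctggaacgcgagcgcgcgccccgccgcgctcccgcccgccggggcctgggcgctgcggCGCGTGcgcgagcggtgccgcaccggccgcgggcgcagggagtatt
PRPF6 (chr20:63980982-63981131, plus strand): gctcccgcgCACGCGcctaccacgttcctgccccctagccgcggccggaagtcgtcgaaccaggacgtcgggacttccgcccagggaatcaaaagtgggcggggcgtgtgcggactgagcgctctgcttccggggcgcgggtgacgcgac
TOMM34 (chr20:44960398-44960547, minus strand): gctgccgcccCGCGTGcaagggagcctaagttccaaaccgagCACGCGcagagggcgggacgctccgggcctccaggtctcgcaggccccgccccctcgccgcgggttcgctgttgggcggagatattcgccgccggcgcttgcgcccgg

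The 7 stretches hold between 62.0% and 81.3% G and C. SNRPB, the gene of the spliceosomal core proteins SmB and SmB′, has neither word in its printed stretch. All 3 proteins had a peak at its start, with authors' fold enrichments of 7.60 for WT, 5.96 for 3A and 3.12 for 7A. Their summits lay inside the gene, 175, 62 and 142 bp from its start, so none fell in the printed stretch. XRN2, the nuclear 5′ to 3′ exoribonuclease, carries CACGTG and had folds of 7.41 for WT and 3.46 for 3A. FOXRED2, an oxidoreductase of the endoplasmic reticulum, had 9.08 and 2.90, and ATF4, the transcription factor of the amino acid response, had 5.61 and 2.60. A word was also present in the stretches of genes without a 3A peak. CBX6, a Polycomb chromobox gene, holds both words with a WT fold of 5.12, but its WT summit lay inside the gene, 505 bp from CACGTG. PRPF6, of the splicing machinery, holds CACGCG with 8.63, and TOMM34, a mitochondrial import factor, holds 2 copies with 8.02. Among these 7 genes a word was thus found both with and without a 3A peak.

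A larger share of WT sites also had a 3A peak on chromosomes 20 and 22 than on any other autosome. A WT site is called kept where a 3A peak overlaps it by at least 1 bp. On the 2 chromosomes 91 of 369 sites were kept, or 24.7% (20.5 to 29.3%), against 15.1% of WT peaks of all chromosomes. Chromosome 20 kept 48 of 186, or 25.8% (20.1 to 32.5%), and chromosome 22 kept 43 of 183, or 23.5% (17.9 to 30.1%). The other 20 autosomes kept 624 of 4307, or 14.5% (13.5 to 15.6%), and single ones ranged from 9.64% on chromosome 13 to 17.5% on chromosome 17. The 2 chromosomes thus ranked first and second of 22, and the interval of either lay above the share of the other autosomes together. Since the pair was taken up with earlier results of these lists in view, the intervals make no allowance for that choice.

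Sites of all 3 proteins were also denser per gene. The pair of chromosomes holds 4.95% of protein-coding genes but 7.77% of WT peaks, 12.9% of 3A peaks and 12.5% of 7A peaks. WT peaks numbered 40.6 per 100 protein-coding genes on chromosome 22 and 34.6 on chromosome 20, the 2 highest values of the autosomes, while the others ran from 15.4 on chromosome 19 to 31.0 on chromosome 16. For 3A there were 11.8 and 10.4 peaks per 100 genes, against 2.14 to 6.16 on the others.

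The local background under the peaks was higher on these chromosomes as well. Background here is the read level that the peak caller set against the pileup at a summit, recovered from each peak's fold and p-value. Its median over WT summits was 18.0 reads on chromosome 22 and 16.9 on chromosome 20, again the first and second of 22 autosomes, with 9.18 to 16.4 on the others. Median pileup was 90 reads over the pair and 71 elsewhere. The authors' WT fold, a ratio to that background, was not higher: its median was 4.80 (quartiles 3.92 to 6.38) against 5.17 (4.15 to 6.73), and chromosomes 22 and 20 ranked 18 and 21 by it.

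**Figure D1:**
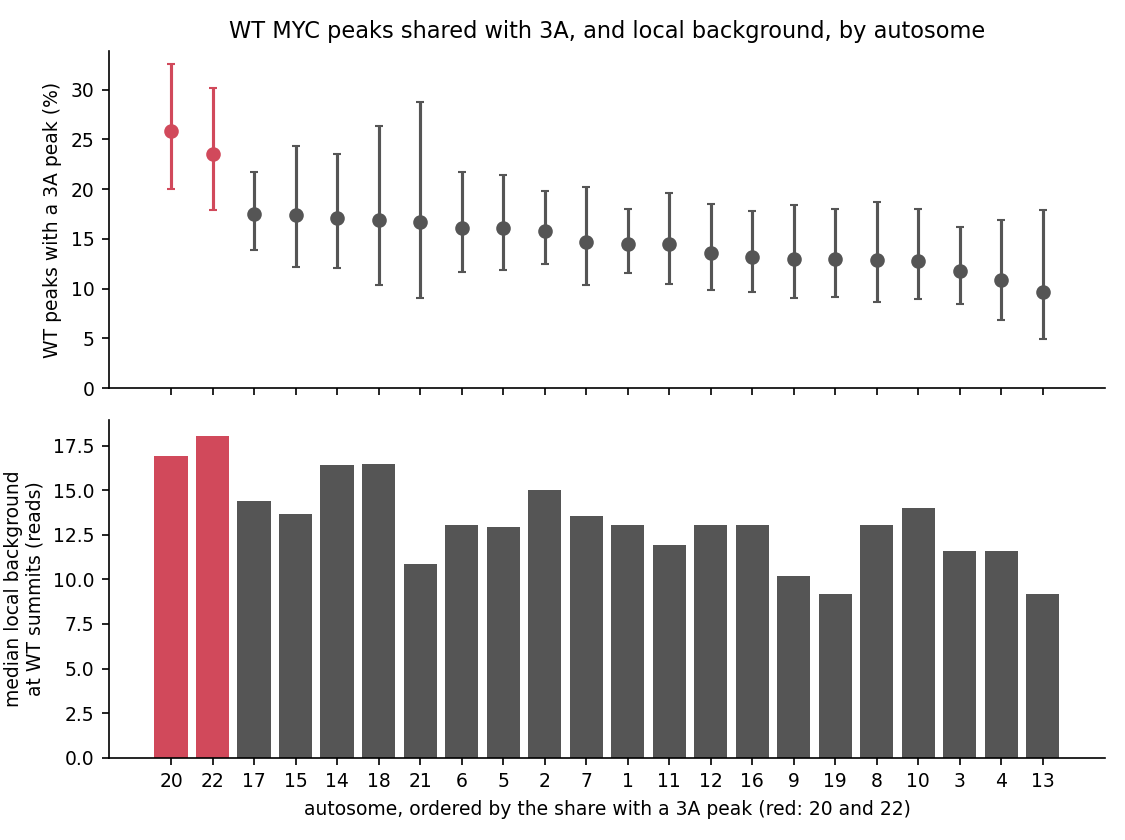
The upper panel plots, for each autosome, the percentage of WT peaks that overlap a 3A peak with its Wilson 95% interval, and the lower panel the median local background at WT summits in recovered reads. Chromosomes 20 and 22, in red, stand first in both panels, at 25.8% and 23.5% and at 16.9 and 18.0 reads.

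The share kept rose with local background both on chromosomes 20 and 22 and on the other autosomes together, and the excess on chromosomes 20 and 22 was smaller among sites of like background. All WT peaks were divided into 4 equal groups by background. In the lowest group 2 of 27 sites were kept, 7.41% (2.06 to 23.4%), against 5.38% on the other autosomes. In the second group 7 of 61 were kept, 11.5% against 10.4%, and in the third 16 of 91, 17.6% against 16.5%. These 3 groups differed by little between the sets, and their intervals on chromosomes 20 and 22 are wide. The 2 chromosomes went opposite ways in them: chromosome 22 alone kept 0 of 13, 6.90% and 12.5%, each below the other autosomes, and chromosome 20 kept 14.3%, 15.6% and 21.6%, each above. In the highest group, above 17.4 reads, 66 of 190 were kept, 34.7% (28.3 to 41.7%), against 27.1% (24.4 to 30.0%), with 33.7% on chromosome 20 and 35.6% on chromosome 22. That group held 51.5% of the WT sites of chromosomes 20 and 22 and 23.1% of those elsewhere.

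Weighted to the backgrounds of the 369 sites, in 10 groups, the other autosomes would keep 20.8%, and weighted to fold and background together 20.3%. The observed 24.7% lay above both, but the first of these values falls inside its interval of 20.5 to 29.3%. Weighting by WT fold alone went the other way and gave 13.9%. In 4 groups made by fold the share of the 2 chromosomes together was higher in each. In the lowest 25 of 114 sites were kept, 21.9% (15.3 to 30.4%), against 7.38% elsewhere, in the second 12 of 103, 11.7% against 9.99%, in the third 21 of 71, 29.6% against 10.6%, and in the highest 33 of 81, 40.7% (30.7 to 51.6%), against 29.7%. The difference was smallest in the second group, where chromosome 22 alone kept 5.88%, below the other autosomes.

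**Figure D2:**
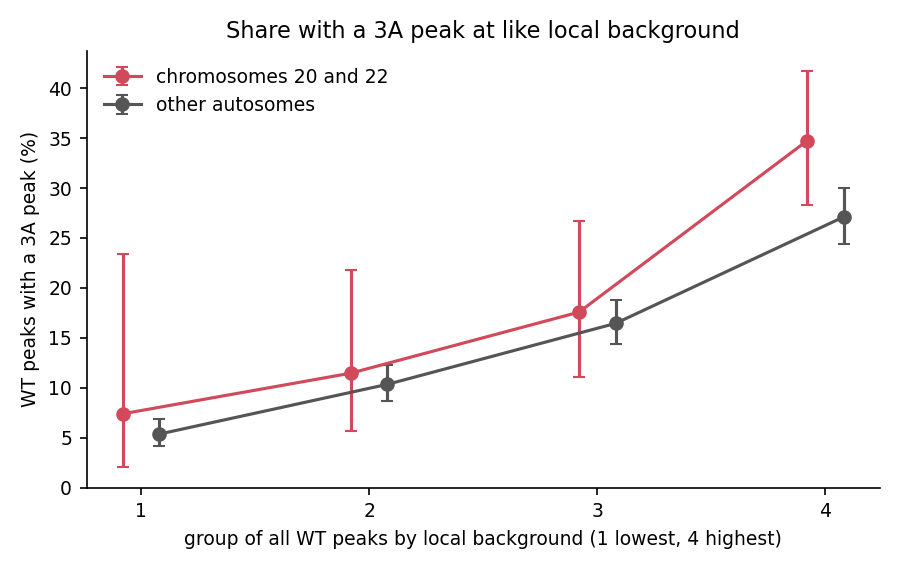
The percentage of WT peaks with a 3A peak is plotted in 4 equal groups of all WT peaks by local background, for chromosomes 20 and 22 and for the other 20 autosomes, with Wilson 95% intervals. The pairs of points lie close in the lower 3 groups and part in the highest, at 34.7% and 27.1%.

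Along chromosome 20 the kept sites were spread over both arms at like shares. Split at its longest stretch without a protein-coding gene, of 5.12 Mb, the chromosome kept 13 of 51 sites before it, 25.5% (15.5 to 38.9%), and 35 of 133 after it, 26.3% (19.6 to 34.4%). Median background was 13.2 reads before and 18.4 after, and median WT fold 5.13 and 4.56. The intervals of both shares are wide, and any link of the shares to background or fold was not tested. The 2 sites within the gap were not kept. On chromosome 22 nearly all sites, 182 of 183, lay after the gap of 15.2 Mb and 43 were kept, while the single site inside it was not. The start of that gap is set by 12 protein-coding genes that the RefSeq table places in the first 5 Mb, where no WT peak lies. Their placement was not checked, and they are counted among the 988 genes of the 2 chromosomes.

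In bins of 5 Mb the higher share was not limited to one stretch. All 15 bins with at least 10 WT peaks kept a larger share than the 14.5% of the other autosomes together, with a median of 22.7% and a range of 16.7 to 34.8%. Elsewhere 80 of 154 such bins did so, with a median of 15.0% and a range of 0 to 36.4%. The bins with fewer peaks include the last of chromosome 22, from 50 to 55 Mb, which kept 1 of 8, and the bin from 10 to 15 Mb, whose 1 site was not kept. No single bin therefore carried the difference, and no bin of the pair exceeded the highest bin elsewhere. The intervals of single bins are wide, and that of the highest reached down to 18.8%, below the value of most of the other bins.

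The bin with the highest share was 35 to 40 Mb of chromosome 20, where 8 of 23 WT sites were kept, 34.8% (18.8 to 55.1%). Its kept sites included the strongest 3A peak of the pair, in LOC124904958, and the ends of EIF6, a ribosome anti-association factor, RBM39, a splicing coactivator, and RBL1, the retinoblastoma family member p107, with WT folds of 4.05, 3.38 and 3.18. The bin from 45 to 50 Mb followed with 6 of 18, 33.3% (16.3 to 56.3%), among them CSE1L, the importin-alpha exporter, at a WT fold of 9.90 and 3A fold of 3.48, and NCOA5, a nuclear receptor coactivator, at 5.52 and 2.32. In the same bin SNAI1, the repressor of E-cadherin, had a WT fold of 9.04 at its end and no 3A peak.

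The lowest shares were in 40 to 45 Mb of chromosome 22 and the first 5 Mb of chromosome 20. The former kept 5 of 30, 16.7% (7.34 to 33.6%), among them TOB2, TTLL12, PNPLA3 and SAMM50, with WT folds of 3.22, 17.9, 5.80 and 7.26. The latter kept 5 of 28, 17.9% (7.88 to 35.6%), near SOX12 and at NSFL1C, SNRPB, NOP56 and MRPS26, with 18.8, 4.80, 7.60, 8.36 and 6.95. Of the 10 kept sites with the highest WT fold, these bins held 2, near SOX12 and at TTLL12.

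**Figure D3:**
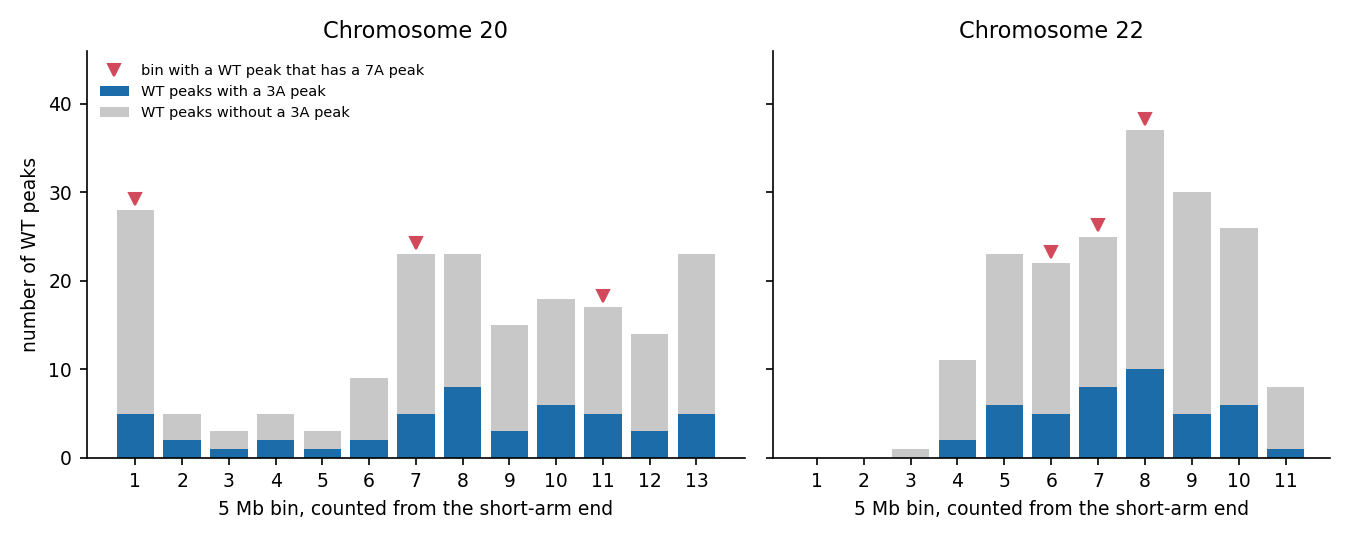
Bars give the number of WT peaks in each 5 Mb bin of chromosomes 20 and 22, numbered from the short-arm end, with the sites that overlap a 3A peak in blue and a triangle over bins with a WT site that has a 7A peak. Kept sites occur in every bin with at least 10 WT peaks, at 16.7 to 34.8% of the bin.

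The share kept was much the same whether or not the neighbouring site was kept. A WT site whose nearest WT neighbour was kept was itself kept in 21 of 84 cases, 25.0% (17.0 to 35.2%), and one whose neighbour was not kept in 70 of 285, 24.6% (19.9 to 29.9%). WT sites lay closer together here, with a median of 52405 bp to the nearest against 79595 bp elsewhere. Kept sites formed 3 groups of at least 3 with gaps of at most 100 kb.

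The first group spans 42.6 kb of chromosome 20, from summit 35263247 to 35305885, and all 3 of its sites were kept: inside MMP24, a membrane metalloprotease gene, at EIF6 and inside UQCC1, an assembly factor of respiratory complex III, with 3A folds of 3.85, 2.65 and 3.00. The second, of 69.8 kb on chromosome 20, lies 50510 to 120292 bp from CEBPB, a leucine zipper transcription factor gene. It kept 3 of 4 sites, with WT folds of 3.98, 3.48 and 3.51, while the site at the end of CEBPB itself had a WT fold of 5.29 and no 3A peak. The third, of 59.9 kb on chromosome 22, kept 4 of 5 sites around HORMAD2, a meiotic chromosome axis gene, and LIF and OSM, which encode related cytokines. Its WT folds were 3.82, 5.21, 5.42 and 8.47 and its 3A folds 3.10, 3.18, 4.46 and 2.82.

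Kept sites had higher WT folds than sites without a 3A peak, but the ranges overlapped widely. The median WT fold was 5.52 (quartiles 4.09 to 7.88) at the 91 kept sites and 4.61 (3.87 to 5.88) at the other 278. A kept site had the higher fold in a share of 0.626 of all pairs of a kept and a not-kept site, where 0.5 would mean no order, and the same share was 0.684 on the other autosomes. Kept sites were also wider, 982 against 752 bp in the median, and had a higher background, 19.8 against 16.4 reads. WT fold was one of the values by which sites entered the lists, so these are descriptions.

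The strongest kept site was at YDJC (chr22:21628662-21630383), where the WT fold was 24.5 and that of 3A 3.74. Next came a site inside LOC124904958 (chr20:38434042-38435582), an uncharacterised gene model, at 19.6 and 6.91. A site 1071 bp before SOX12 (chr20:324064-326508), a SOX family transcription factor gene, had 18.8 and 5.24. The 3 peaks had backgrounds of 18.7, 22.7 and 10.2 reads. The first and second of these fell in the highest of the 4 background groups, above 17.4 reads, and the third did not.

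TTLL12, of the tubulin tyrosine ligase-like family (chr22:43186496-43187137), followed at 17.9 for WT and 4.51 for 3A. CDC42EP1, an effector of the GTPase CDC42 (chr22:37559993-37562810), had 16.6 and 4.21 in the widest of these peaks. TRMT2A, a tRNA methyltransferase gene (chr22:20116822-20118336), had 13.6 and 4.24, with the summit lying in the neighbouring gene RANBP1. The remaining members of the 10 strongest were FERMT1, an integrin adaptor, the shared end of SNX5, a sorting nexin, and MGME1, a mitochondrial DNA exonuclease, AHCY, which hydrolyses S-adenosylhomocysteine, and PES1, a factor of large ribosomal subunit maturation. Their WT folds were 13.5, 13.5, 12.5 and 12.2 and their 3A folds 4.40, 5.55, 4.42 and 4.18. The summits at AHCY and PES1 lay 6 and 38 bp from a listed transcription start.

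Several WT sites of like strength had no 3A peak. The strongest lay 29275 bp from RTN4R, the Nogo receptor gene (chr22:20211372-20212535), with a WT fold of 18.3. A site outside genes 27867 bp from the nearest listed start, that of PPARA, a lipid-sensing nuclear receptor gene (chr22:46122300-46122962), had 17.1. A pair of sites 2180 and 5807 bp from CDC25B, the phosphatase that activates cyclin-dependent kinases, had 15.8 and 9.90. Most of these strong sites without 3A lay away from gene ends.

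A site inside CERK, the ceramide kinase gene (chr22:46731055-46732031), had a WT fold of 13.5, and one 605 bp from SRC, a tyrosine kinase gene (chr20:37406343-37406940), had 13.3. The others of the 10 were 26105 bp from ATXN10 at 11.7, inside SLC2A4RG at 10.6, at SLCO4A1, an organic anion transporter gene, at 10.4, and at a start of RANGAP1, the GTPase-activating protein of Ran, at 9.86. Backgrounds at these 10 sites ran from 7.48 to 19.8 reads, and at the 10 strongest kept sites from 8.50 to 26.1, so the ranges overlapped.

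**Figure D4:**
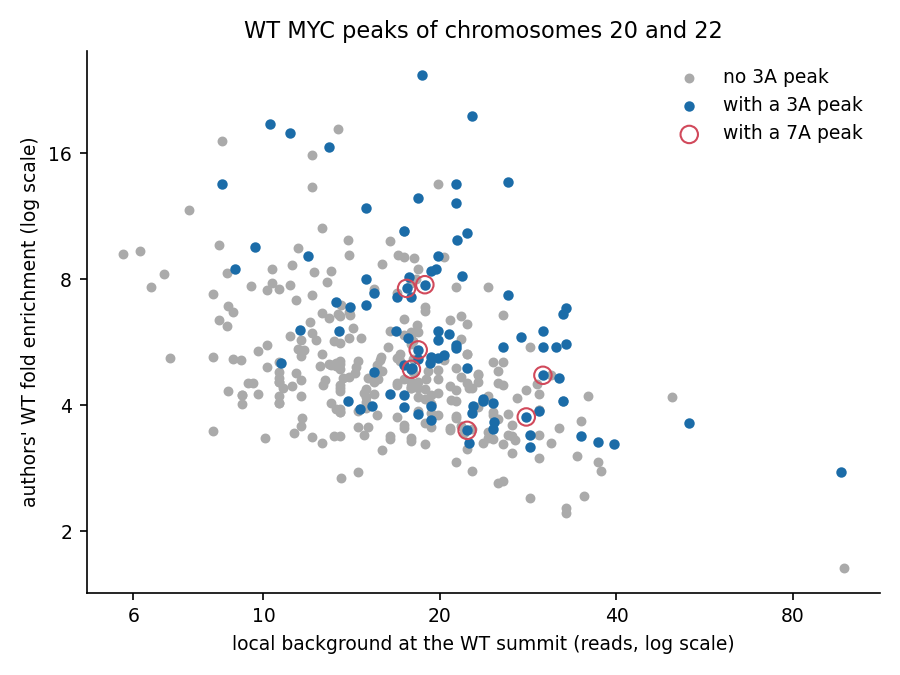
Each point is a WT peak of chromosomes 20 and 22, placed by its local background in recovered reads and by the authors' WT fold, both on log scales, with kept sites and sites with a 7A peak marked. Kept sites reach across the whole range of folds and are more frequent to the right, where the median background is 19.8 reads against 16.4 for the rest.

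At the 91 kept sites the 3A fold had a median of 3.18, and 68 of the 91 summit pairs (74.7%) lay within 100 bp of each other. The WT and 3A folds had a Pearson r of 0.616 and a Spearman rho of 0.542 over these 91 sites, which share their surroundings, the backgrounds in the 2 lists having an r of 0.982. The 4 highest 3A folds were 6.91 in LOC124904958, 5.96 at SNRPB, 5.55 at SNX5 and MGME1 and 5.24 near SOX12. Folds of different lists have different backgrounds and do not compare amounts of the proteins.

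By position, the WT sites of chromosomes 20 and 22 lay less often at gene ends than those elsewhere, and kept sites more often than the rest. The summit of 196 of 369 sites lay at most 1 kb from where a protein-coding gene's span ends, 53.1% (48.0 to 58.1%), against 60.6% (59.1 to 62.0%) on the other autosomes. Sites outside genes made up 23.6%, against 16.8%. At gene ends 60 of 196 sites were kept, 30.6% (24.6 to 37.4%), against 17.3% elsewhere. Inside genes 15 of 86 were kept, 17.4% (10.9 to 26.8%) against 9.72%, and outside genes 16 of 87, 18.4% (11.6 to 27.8%) against 10.9%. The higher value inside genes came from chromosome 20, which kept 10 of 38, 26.3% (15.0 to 42.0%), while chromosome 22 kept 5 of 48, 10.4% (4.53 to 22.2%), near the share elsewhere. At gene ends and outside genes both chromosomes were above the other autosomes, with 31 of 106 and 29 of 90 kept at gene ends and 7 of 42 and 9 of 45 outside genes.

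Counted by gene, 251 of 988 protein-coding genes on the 2 chromosomes, 25.4% (22.8 to 28.2%), had a WT summit within 1 kb of an end or a listed start, against 18.4% of all protein-coding genes. Of these 251, 76 also had a 3A summit, 30.3% (24.9 to 36.2%), against 18.7% of all WT-bound genes. The 2 chromosomes gave 41 of 135 and 35 of 116. Genes that share a bidirectional end share a site and are counted separately, and the gene lists that follow hold genes picked with earlier results known.

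Genes of ribosome production had the highest shares kept. Of 5 genes in the ribosomal protein list, 4 were bound by WT and all 4 were kept, and the other, RPS19BP1, whose product binds a ribosomal protein, had no WT summit. MRPL40 had folds of 7.34 for WT and 3.26 for 3A, MRPS26 6.95 and 3.74, RPL3 6.82 and 4.12, and RPS21 4.65 and 2.39. The first 2 belong to the mitochondrial ribosome and the last 2 to the cytosolic one. Of 13 genes listed under ribosome assembly and rRNA processing, 10 were bound and 9 kept. They were led by PES1, NOP56, a core protein of box C/D small nucleolar RNPs, at 8.36 and 3.71, ESF1, a nucleolar processing factor, at 8.01 and 3.24, and XRN2. RRP7A was bound at 4.04 and not kept. The list also holds ZNFX1 and NOL4L, which are not known as assembly factors and were both kept, at 5.51 and 6.01. Over all 251 bound genes the share was 30.3%.

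Genes of translation and tRNA enzymes followed with 12 of 16 bound and 7 kept. TRMT2A, EIF3D, a subunit of initiation factor eIF3, at a WT fold of 10.3 and 3A fold of 4.15, and CSE1L were kept, and RANGAP1 was not. CSE1L and RANGAP1 act in nuclear transport rather than translation. Among splicing and RNA-binding genes 16 of 24 were bound and 6 kept, 37.5%, near the 30.3% of all bound genes. SRSF6, a serine/arginine-rich splicing factor, at 8.16 and 3.18, and SNRPB were kept. PRPF6 and THOC5, of the mRNA export complex THO, at 6.70, were not.

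Of 29 genes for mitochondrial proteins 14 were bound and 5 kept, 35.7%, near the 30.3% of all bound genes. NDUFAF5, which shares its site with ESF1, MRPL40 and SAMM50, of the outer membrane sorting machinery, at a WT fold of 7.26 and 3A fold of 2.98, were kept, and TOMM34 was not. Among 14 nucleotide and one-carbon genes 7 were bound and only AHCY was kept, 14.3%. ADSL, adenylosuccinate lyase, had a WT fold of 9.01 without a 3A peak, UCKL1, a uridine kinase-like gene, 6.60, and TYMP, thymidine phosphorylase, 6.24. These lists are small, and a difference of 1 or 2 genes changes their shares.

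In the RNA polymerase and general transcription list TOP1, topoisomerase I, was bound by WT at a fold of 8.47, L3MBTL1 at 4.44 and POLDIP3 at 4.38, and none of these 3 was kept. Chromatin and transcription regulators had 18 of 43 bound and 5 kept, 27.8%, near the 30.3% of all bound genes. HIRA, a histone H3.3 chaperone that shares its site with MRPL40, was kept, and TCF20 at 9.12, SNAI1 at 9.04 and KAT14, an acetyltransferase gene, at 7.59 were not.

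Replication and cell cycle genes had 10 of 29 bound and 2 kept, GINS1, of the replicative helicase, at a WT fold of 4.08, and RBL1. CENPM, a centromere protein gene, at 6.22 and MCM8, of the MCM helicase family, at 5.80 were not kept. Of 18 proteasome and ubiquitin genes 5 were bound, 27.8%, near the 25.4% of protein-coding genes on the 2 chromosomes. Of the 5 bound genes 1 was kept, RNF114, a ubiquitin ligase, at 3.24, while TRIB3, a pseudokinase, was bound at 4.34 and not kept. Over all 251 bound genes the share kept was 30.3%. Tissue-restricted genes, listed as a contrast, had 2 of 73 bound, PRNP at 4.55 and MYH7B at 4.12, and none kept.

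**Figure D5:**
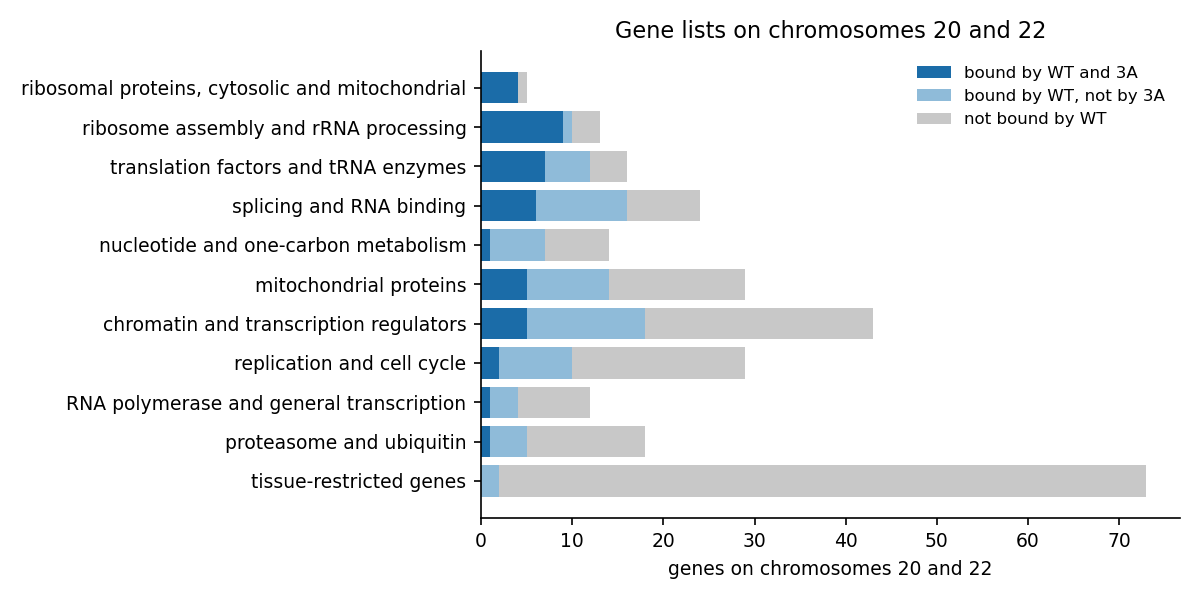
For each of 11 gene lists the bars give the number of listed genes on chromosomes 20 and 22, the number with a WT summit within 1 kb and the number of these with a 3A summit as well. Ribosome assembly genes show 10 of 13 bound and 9 kept, and tissue-restricted genes 2 of 73 bound and 0 kept.

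Few 3A peaks lacked a WT peak. They numbered 14 of 109, 12.8%, 7 on each chromosome, against 13.3% of 3A peaks of all chromosomes. The strongest lay 3551 bp from C20orf204 (chr20:64042413-64042707) with a 3A fold of 4.18, and inside BMP7, a bone morphogenetic protein gene (chr20:57212403-57212925), with 3.49. At TCEA2, a transcription elongation factor gene, the fold was 3.39, and at TOP3B, a topoisomerase gene, 3.17. A peak 578 bp from TTLL12 had 3.16 and lay beside the strong kept site of that gene rather than apart from WT binding. The sixth, 4517 bp from LIF, had 3.19 and also overlapped a 7A peak. All 14 folds lay between 2.33 and 4.18, within the range of the other 3A peaks.

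The 8 peaks of 7A all overlapped a 3A peak, and 7 of the 8 overlapped a WT peak. The 1 without a WT peak makes 12.5%, against 15 of 64 (23.4%) over the 7A peaks of all chromosomes. The share of all 7A peaks that overlap a 3A peak is not given here, so the overlap with 3A has no such value beside it. As a share of WT sites, those with a 7A peak were 7 of 369, 1.90% (0.922 to 3.86%). Over WT peaks of all chromosomes the share was 1.03%, and the interval includes that value. Only the peak at SNRPB lay at a gene end, and the other 7 were outside protein-coding genes. On the other autosomes 21 of 55 7A peaks were at gene ends.

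The remaining pair on chromosome 20 lay 1598 bp from MYLK2, a myosin light chain kinase gene (chr20:31835923-31836515), and 116241 bp from CEBPB (chr20:50308642-50309250), within the span of the long non-coding RNA gene LINC01270. The first had folds of 3.05 for 7A, 4.87 for WT and 3.73 for 3A, and the second 3.50, 3.48 and 3.93. The latter belongs to the kept group near CEBPB.

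On chromosome 22 a pair of 7A peaks lay 508884 and 524561 bp from MN1, a transcriptional coregulator gene, within or near the span of LINC01638. Their folds were 3.01 and 2.75 for 7A, 4.72 and 3.75 for WT, and 4.06 and 2.83 for 3A. A second pair lay 4390 and 7492 bp from LIF. The nearer (chr22:30235771-30236223) had a 7A fold of 3.27 and a 3A fold of 3.19 without a WT peak, and the farther (chr22:30232702-30233263) had 3.99, 4.46 and, for WT, 5.42. The last was 4908 bp from ELFN2 (chr22:37432190-37432592) at 3.48 for 7A, 7.76 for WT and 4.43 for 3A. Thus 4 of the 5 sites on chromosome 22 fell in 2 short intervals.

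The weakest members show where the lists end. The lowest −log10 q on these chromosomes was 4.93 for a WT peak, 2.36 for a 3A peak at DDX17, a DEAD-box helicase gene, and 8.07 for the 7A peak near MYLK2. Peaks beyond the authors' threshold are not in the lists, so a WT site without a listed 3A peak may still have 3A signal below it.

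Promoters were compared for both words in windows of 250 bases before to 50 after each listed start, on both strands, where a window may hold both. On chromosomes 20 and 22, 38 of 231 promoters with a WT summit within 1 kb held CACGTG, 16.5% (12.2 to 21.8%), against 6.07% of those without and 7.23% of all 34943 promoters in the table. The shares were 12.7% (6.81 to 22.4%) for promoters with both WT and 3A and 18.1% (12.9 to 24.8%) for those with WT alone, intervals that overlap. CACGCG was in 30.7% (25.1 to 37.0%) of the WT promoters, 12.1% of the others and 11.4% of all, and in 36.6% (26.4 to 48.2%) with both proteins against 28.1% (21.7 to 35.5%) with WT alone. For both words the intervals of kept and not-kept promoters overlapped. Genes with several listed starts, such as BID and ASXL1, enter more than once with overlapping windows. The intervals treat these windows as separate and are therefore too narrow. Elsewhere WT promoters held them at 16.2% and 27.2%.

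Among non-coding genes, 97 of the 369 WT sites (26.3%) were within 1 kb of a long non-coding RNA gene, against 25.0% elsewhere. No WT site of the pair was within 1 kb of a tRNA gene, and 45 of 4307 were on the other autosomes.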

How the data were processed

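Binding was measured by chromatin immunoprecipitation with a reference exogenous genome. Cells were fixed in 1% formaldehyde for 10 min and chromatin was sheared to 200 to 500 bp, per the labels' protocols. Tools named in the submitters' processing notes are MACS2, Bowtie2, cutadapt, Picard and SAMtools, with no version, and the builds named are hg38, hg19 and mm10, with no role. How the 2 libraries of a protein, any control and the mouse reads entered its list is not given in the sources used here. The authors deposited 1 narrowPeak list per induced protein, with a score, a fold enrichment (a ratio to local background), and −log10 p-value and −log10 q-value for each peak. The deposited score and the −log10 p were not reported. All folds are the authors' values and rank peaks within a list. No total read count is in these files, so the depth of each library is unknown.

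Peaks were matched by an overlap of at least 1 bp, and coordinates were counted from 1. The RefSeq table of GRCh38.p14 gave 988 protein-coding genes on the 2 chromosomes, of which 692 had a listed start, and no starts on chromosome 8. A gene was bound where a summit lay within 1 kb of an end of its span or a listed start. Spans carry no strand or exons, so the start and the 3′ end of a gene count alike, and exon, intron and UTR classes were not analysed here. Coordinates in the lists were read as hg38, without a header that names it. Pileup and background were recovered from the fold, read as (pileup + 1)/(background + 1), and from the p-value, read as the upper tail of a Poisson count, which fitted every peak of the WT and 3A lists (4749 and 845) and 63 of 64 in the 7A list. Tested on simulated data, the recovery returned 1000 of 1000 pileups, and the overlap step classed 300 of 300 peaks rightly as shared or not shared. If the authors scaled the reads before calling, the recovered reads are in scaled units. Bins of 5 Mb were counted from the first base, and bins with fewer than 10 WT peaks entered no share.

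The members, the 11 gene lists and the displays were chosen with earlier results of these data known. Named sites were the 10 strongest WT peaks with and without 3A, the 6 strongest 3A peaks without WT, every 7A peak, up to 4 bound genes of each list by WT fold, and the 2 highest and 2 lowest bins. The other genes in those bins, the 3 groups of neighbouring kept sites, the 4 highest 3A folds, and some further list members were named after their values were seen. Some results that this rule covers are not reported here. The gene named for a distant site is the closest protein-coding one and may not be regulated from there. Alternative settings were a stricter overlap, a −log10 q minimum of 5 or 10, merging of peaks, bin size, windows of 500 bp and 5 kb, and weighting by fold. Weighting by background and by −log10 q, each chromosome alone, and gene ends or starts alone were added after seeing the data. Computation used Python 3.11.15, numpy 2.4.6, pandas 2.3.3, scipy 1.17.1 and matplotlib 3.10.9.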

Additional observations from a re-analysis of the deposited data

How the results depend on the processing

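The share of WT sites with a 3A peak, 24.7% on chromosomes 20 and 22, was 19.2% where each peak had to overlap at least 50% of the other, 18.7% with summits within 100 bp and 19.1% at a −log10 q of at least 10 in both lists. The other autosomes gave 10.4%, 10.7% and 11.2% under these rules, so the pair stayed higher in each. Weighted to the sites' WT folds, −log10 q, or folds and backgrounds, the other autosomes would give 13.9%, 16.9% and 20.3%. Genes kept among WT-bound genes were 23.0% at a −log10 q of at least 10, against 13.6% elsewhere. WT sites near a gene end were 45.0% with a window of 500 bp, 63.1% with 5 kb and 46.3% with listed starts in place of ends, against 51.4%, 71.6% and 59.8% elsewhere. The share of pairs in which the kept site was the stronger was 0.728 by −log10 q. The share with 7A stayed between 1.36% and 2.19% under 7 alternatives, and all bins with at least 10 WT peaks stayed above the other autosomes' share at 10 Mb (10 of 10) and when shifted by 2.5 Mb (16 of 16). No paired analysis was possible because each protein has 1 peak list and no replicate lists. Library depth was not known, so sites missing from the 3A or 7A list cannot be told from sites below the caller's threshold.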
